A study of Mus musculus with 6 samples.

Results

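The heat shock proteins described here are 10 chaperone genes of the cytosol and the mitochondrion. They were measured by RNA sequencing in primary cultures of cortical cells, taken from mice at gestational day 15.5. The genes were chosen by symbol, as the heat-inducible Hsp70 genes Hspa1a and Hspa1b, the constitutive Hsp70 gene Hspa8, their co-chaperones Dnajb1 and Hsph1, the cytosolic Hsp90 genes Hsp90aa1 and Hsp90ab1, the small heat shock protein gene Hspb1, and the mitochondrial chaperonin genes Hspd1 and Hspe1. All 10 were found among the 43346 genes listed, and 8 of them were among the 10520 genes with enough counts to be tested. The cultures were treated with DMSO, the vehicle, or with 1 mM 10HDA (10-hydroxy-2-decenoic acid), a fatty acid of royal jelly. Each treatment had 3 libraries, 1 from each of cultures 1, 3 and 4. Per the labels, all of the cultures were of the Cyp19-EGFP strain, in which an aromatase promoter drives a green fluorescent reporter, and carried Sry, which marks a male. The methods of the paper name C57BL/6 embryos for this experiment. The comparison addresses which genes of the cultured cortex respond to 10HDA.

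Heat shock proteins are chaperones, which bind unfolded or partly folded proteins and help them to fold. Hsp70 proteins bind short exposed stretches of a client protein in a cycle driven by ATP, which J-domain proteins such as Dnajb1 start and exchange factors such as Hsph1 reset, and Hsp90 proteins act later on kinases, steroid receptors and other clients. In the mitochondrion, Hspd1 (Hsp60) forms a barrel and Hspe1 (Hsp10) its lid. When unfolded proteins accumulate, heat shock factor 1 (Hsf1) binds heat shock elements, which are repeats of GAA and of its complement TTC at fixed spacing, and induces many of these genes. Hspa1a, Hspa1b and Hspb1 are textbook indicators of that response, whereas Hspa8 and Hsp90ab1 are abundant in unstressed cells.

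The sequence upstream of Hspa1a and Hspa1b is shown first because the transcripts of these genes share much of their sequence. In the RefSeq promoters of build GRCm38.p6 (250 bases before to 50 after the start site), the 2 genes differed at 4 of 300 bases, so that 98.7% were identical, and 3 of the differences lay before the start site. The 250 bases before each start site, both on the minus strand, are given below for Hspa1a at chr17:34972157-34972406 and for Hspa1b at chr17:34959239-34959488. Capitals mark GAANNTTC, the shorter form of the heat shock element searched for, which lies at the same place in both, 104 bases before the start site.
Hspa1a: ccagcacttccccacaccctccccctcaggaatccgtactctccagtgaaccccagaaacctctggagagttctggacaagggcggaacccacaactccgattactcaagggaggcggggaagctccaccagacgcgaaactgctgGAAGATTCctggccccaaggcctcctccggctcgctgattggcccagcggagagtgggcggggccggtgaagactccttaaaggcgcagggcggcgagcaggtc
Hspa1b: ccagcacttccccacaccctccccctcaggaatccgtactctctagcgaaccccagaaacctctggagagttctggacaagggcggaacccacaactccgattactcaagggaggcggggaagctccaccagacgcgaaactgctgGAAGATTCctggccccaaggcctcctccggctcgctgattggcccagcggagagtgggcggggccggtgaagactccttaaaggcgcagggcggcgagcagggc

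Promoters of 7 of the 10 genes were matched in the RefSeq table, which leaves Hspa8, Hsp90aa1 and Hsp90ab1. Each motif was searched on both strands in the promoters of all 27025 genes. GAANNTTC was in 6 of the 7 genes and in 9.04% of all genes, and TTCNNGAA was in 3 of the 7 and in 9.60% of all genes. The longer heat shock element (GAANNTTC followed by any 2 bases and GAA, which contains both shorter forms) was in 3 of the 7 genes, Hspd1, Hspe1 and Hsph1, and in 0.662% of all genes. CCAAT was in 5 of the 7 and in 41.1% of all genes, and TATAAA in 0 of the 7 and in 15.7% of all genes. The stretches with the matches are shown for the other genes that had them, with GAANNTTC and TTCNNGAA in capitals. They are on the plus strand for Hspb1 (chr5:135887789-135887848) and Hspe1 (chr1:55088051-55088080), and on the minus strand for Hsph1, before (chr5:149636354-149636376) and after (chr5:149636287-149636307) the farther upstream of its start sites in RefSeq. The Hspe1 stretch lies within the span that GENCODE gives to Hspd1, and both Hsph1 stretches lie within that of Hsph1. Hspd1 lies head to head with Hspe1, and its matches are those of the stretch shown for Hspe1, on the opposite strand. Of the 7 genes, Dnajb1 was the one with no match to either shorter form. A match is a run of letters and not a measured binding site.
Hspb1: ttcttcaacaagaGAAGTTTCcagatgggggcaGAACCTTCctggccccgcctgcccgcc
Hspe1: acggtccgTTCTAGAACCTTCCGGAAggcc
Hsph1, before the start site: agaatctTTCTCGAAggctcgag
Hsph1, after the start site: ctgcagaTTCTGGAAAGTTCt

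Libraries held from 9144736 to 13367194 counts, and the fewest were in the 10HDA library of culture 4. Values are given in CPM, a count divided by the size of its library, after TMM scaling, a factor per library that sets most genes level between libraries. Before the results, 1 culture stood apart from its label. The summed level of 4 genes of the Y chromosome (Uty, Kdm5d, Eif2s3y and Ddx3y) was 8.87 and 9.10 CPM in the vehicle and 10HDA libraries of culture 1 and from 95.7 to 133 CPM in the other libraries, which goes against the Sry-positive label of culture 1. The calls and ratios of the heat shock protein genes are therefore also given without culture 1. Neuronal markers summed to between 4745 and 6079 CPM in every library, which fits the label of cortical cells, whereas the 7 microglial markers summed to at most 1.21 CPM, with Tmem119 at 0.

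With 10HDA, no heat shock protein gene of the 8 tested passed the threshold, an adjusted p under 0.1 from edgeR's quasi-likelihood test, when culture was left out of the fit. At that threshold, 0.627% of all genes tested passed. At an unadjusted p under 0.05 there were 3 (Hspa1b, Hsp90ab1 and Hsph1), against 10.1% of all genes tested. DESeq2 and limma-voom also passed 0 of the 8, with 4 and 3 at an unadjusted p under 0.05. The fit with culture as a block compares the 2 treatments within each culture. With it, 3 of the 8 passed, against a background of 8.98% of all genes tested. Hspa1b was the 1 that was higher, where 3.91% of all genes tested passed as higher, and Hsp90ab1 and Hsph1 were the 2 that were lower, where 5.08% did. By fold change alone, 5 of the 8 were above 0, as were 47.9% of all genes tested, and the median log2 fold change of the 8 was 0.0095, against -0.0095 for all genes tested. Within cultures 1, 3 and 4, the medians of the heat shock protein genes were -0.059, -0.10 and 0.10.

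These calls did not hold with each culture left out. Without culture 1, none of the 8 passed, and the adjusted p from edgeR was 0.163 for Hspa1b, 0.239 for Hsp90ab1 and 0.301 for Hsph1. Without culture 4, none passed either, with 0.493, 0.307 and 0.241 in the same order. Without culture 3, Hspa1b (0.0416) and Hsp90ab1 (0.0706) passed and Hsph1 (0.143) did not. With library size alone in place of TMM and the same block, Hspa1b passed (0.0281), while Hsp90ab1 (0.169) and Hsph1 (0.199) did not. The directions of these 3 genes were the same in all of these fits.

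**Figure D1:**
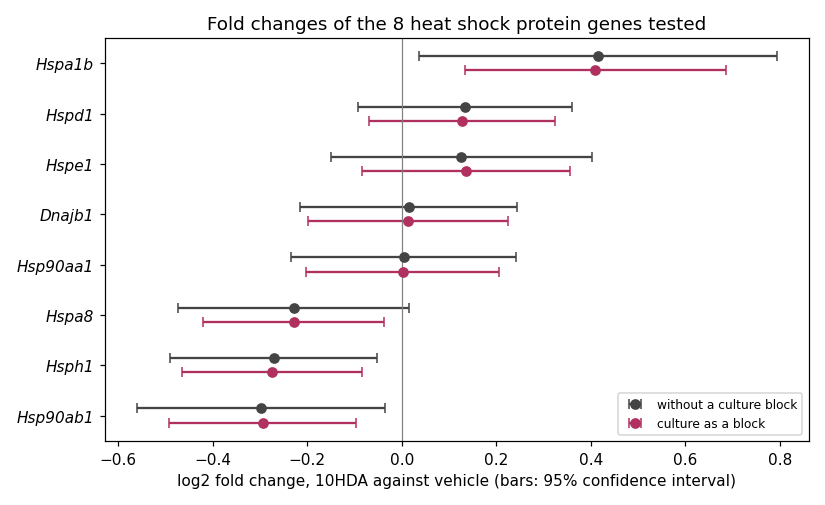
Log2 fold changes, 10HDA against vehicle, of the 8 heat shock protein genes tested, with bars for the 95% confidence interval, without a culture term (grey) and with culture as a block (red). The interval lies above 0 for Hspa1b and below 0 for Hsp90ab1 and Hsph1 in both fits, while that of Hspa8 includes 0 in the fit without the block and lies below it in the other.

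The levels of the 10 genes spanned a wide range, and Hsp90ab1 dominated. Per kilobase of exon, the vehicle cultures held 642 ± 65.1 (SD, n = 3) CPM of Hsp90ab1, 233 ± 18.1 of Hspa8, 153 ± 10.7 of Hsp90aa1, 47.3 ± 0.88 of Hspd1, 33.3 ± 5.36 of Hspe1, 32.4 ± 0.50 of Hsph1, 17.4 ± 0.78 of Dnajb1 and 4.41 ± 0.61 of Hspa1b. Hspa1a was at 0.577 ± 0.18 and Hspb1 at 0.103 ± 0.089 CPM per kilobase. The order was the same with 10HDA. Among neighbours in that order down to Hspa1a, Hspe1 and Hsph1 overlapped in the vehicle libraries and no others did in either treatment. Hsp90ab1 took from 45.1% to 49.95% of the counts of the 10 genes, and Hsp90ab1, Hspa8 and Hsp90aa1 together from 87.1% to 88.9%. All 10 genes together held between 0.340% and 0.406% of a library's counts.

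**Figure D2:**
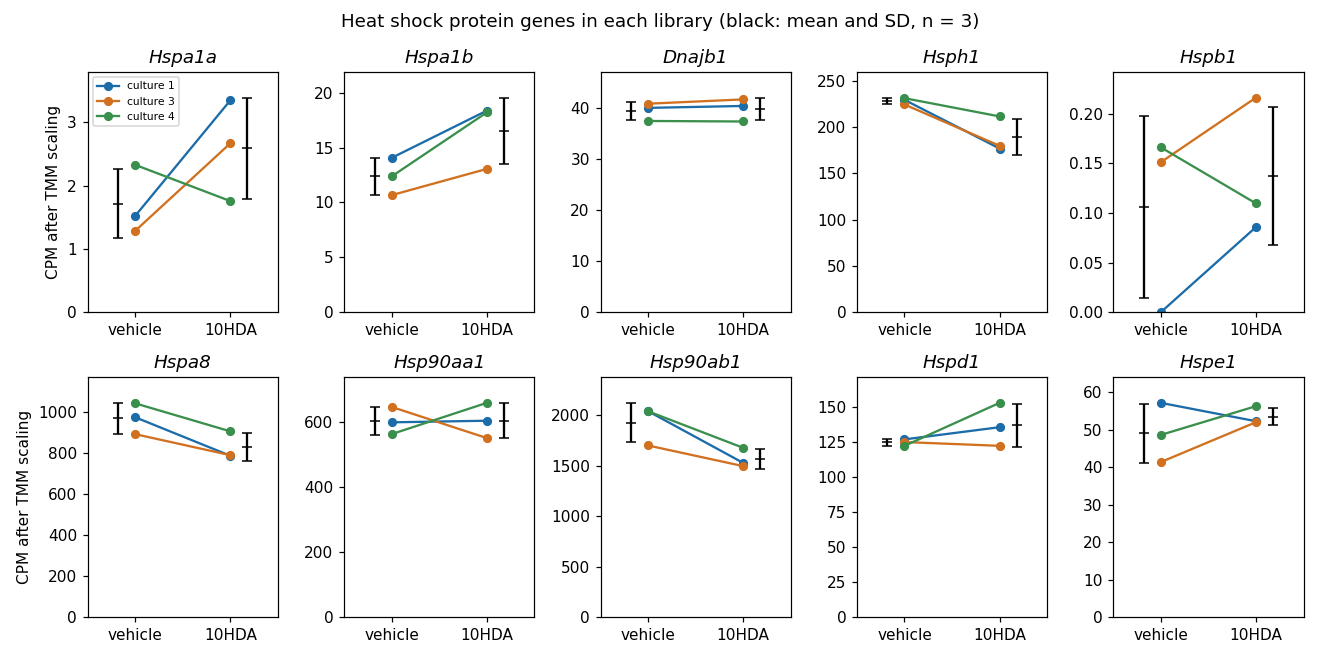
Level of each heat shock protein gene in the 6 libraries, in CPM after TMM scaling on a linear axis from 0, with a line joining the vehicle and 10HDA libraries of a culture and black bars for the mean and SD (n = 3). All 3 lines slope up for Hspa1b and all 3 slope down for Hspa8, Hsp90ab1 and Hsph1, while the lines of Hsp90aa1, Hspd1 and Hspe1 differ in slope between cultures.

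Hspa1b (ENSMUSG00000090877.3, chr17:34956436-34959238, minus strand), which encodes the heat-inducible Hsp70, stood at 14.1, 10.7 and 12.4 CPM in the vehicle libraries of cultures 1, 3 and 4 and at 18.4, 13.1 and 18.2 CPM with 10HDA. It was higher with 10HDA in each culture, and the groups overlapped because the 10HDA library of culture 3 lay below the vehicle library of culture 1. The means were 12.4 ± 1.70 and 16.5 ± 3.02 CPM (SD, n = 3), and the log2 fold change was 0.42 (SE 0.17, 95% interval 0.037 to 0.79, adjusted p = 0.455 from edgeR). With culture as a block it was 0.41 (SE 0.13), and the adjusted p was 0.0737. Within cultures 1, 3 and 4 the log2 ratio was 0.38, 0.29 and 0.56.

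Hspa1a (ENSMUSG00000091971.3, chr17:34969190-34972156, minus strand) encodes nearly the same protein and was too low to be tested. It had 17, 17 and 28 counts with vehicle and 39, 37 and 16 with 10HDA, which is 1.52, 1.29 and 2.33 CPM against 3.35, 2.67 and 1.76 CPM. It was higher with 10HDA in cultures 1 and 3, by 1.11 and 1.03 on the log2 scale, and lower in culture 4, by a log2 ratio of -0.39. Where genes down to 1 CPM were kept, its log2 fold change was 0.63 (SE 0.32, adjusted p = 0.507 from edgeR). Counts of Hspa1a and Hspa1b added up gave 15.6, 12.0 and 14.7 CPM with vehicle and 21.7, 15.7 and 20.0 CPM with 10HDA. The pair as 1 gene did not pass without the culture block. With the block, a fit chosen after seeing the data, its log2 fold change was 0.44 (SE 0.13, adjusted p = 0.0385 from edgeR). That adjusted p was 0.135 without culture 1, 0.0323 without culture 3 and 0.238 without culture 4.

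Hspa8 (ENSMUSG00000015656.12, chr9:40800984-40810087, plus strand), the constitutive Hsp70 that also uncoats clathrin vesicles, stood at 973, 891 and 1041 CPM in the vehicle libraries and at 786, 789 and 905 CPM in the 10HDA libraries. It was lower with 10HDA in each culture, with log2 ratios of -0.31, -0.18 and -0.20, and the groups overlapped by 1 library each. The means were 968 ± 75.1 and 827 ± 67.8 CPM (SD, n = 3), and the log2 fold change was -0.23 (SE 0.11, 95% interval -0.47 to 0.016, adjusted p = 0.520 from edgeR). With the block the adjusted p was 0.160.

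The ratio of the inducible to the constitutive Hsp70 genes was compared as 1 of 4 ratios, all taken from counts and not per kilobase of exon. The summed counts of Hspa1a and Hspa1b were 1.60%, 1.34% and 1.41% of those of Hspa8 in the vehicle libraries of cultures 1, 3 and 4. With 10HDA they were 2.76%, 1.99% and 2.21% of them. The groups did not overlap. The difference in the mean log2 ratio was 0.67, with p = 0.1 in an exact two-sided permutation test and 0.4 after adjustment over the 4 ratios. A p of 0.1 is the smallest that 3 libraries against 3 can give. Without culture 1 the difference was 0.61, where 2 libraries against 2 cannot give a p below 0.333. Hspa1a by itself was from 10.8% to 18.8% of Hspa1b with vehicle and from 9.64% to 20.4% with 10HDA (difference in mean log2 ratio 0.18, exact two-sided permutation test p = 0.9), and the difference was -0.10 without culture 1.

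Hsph1 (ENSMUSG00000029657.11, chr5:149614287-149636376, minus strand), the Hsp110 exchange factor of Hsp70, stood at 230, 225 and 231 CPM with vehicle and at 177, 180 and 212 CPM with 10HDA. The groups did not overlap, and the 10HDA library of culture 4 was closest to the vehicle libraries. Of the 8 genes tested, Hsph1 and Hsp90ab1 were the 2 whose groups did not overlap with 10HDA lower, against 7.44% of all genes tested, and in 0 of the 8 did all 10HDA libraries lie above, against 5.96%. For Hsph1 the means were 228 ± 3.52 and 189 ± 19.3 CPM (SD, n = 3), and the log2 fold change was -0.27 (SE 0.10, 95% interval -0.49 to -0.052, adjusted p = 0.403 from edgeR). With the block it was -0.28 (SE 0.093), and the adjusted p was 0.0830. Within cultures the log2 ratios were -0.38, -0.32 and -0.13.

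Dnajb1 (ENSMUSG00000005483.9, chr8:83608193-83612653, plus strand), the J-domain protein that feeds clients to Hsp70, stood at 40.0, 40.8 and 37.4 CPM with vehicle and at 40.3, 41.6 and 37.3 CPM with 10HDA. The libraries of a culture were close to each other, and the spread between cultures was larger than the difference between treatments. The log2 fold change was 0.015 (SE 0.10), and its 95% interval ran from -0.21 to 0.24. As a ratio of 10HDA to vehicle, that interval is 0.862 to 1.19.

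Hsp90ab1 (ENSMUSG00000023944.10, chr17:45567775-45573271, minus strand), the constitutive cytosolic Hsp90, was the most abundant of the genes. It stood at 2038, 1699 and 2037 CPM with vehicle and at 1527, 1495 and 1676 CPM with 10HDA. All 3 libraries with 10HDA lay below all 3 with vehicle, and the vehicle library of culture 3 was close to the 10HDA library of culture 4. The means were 1925 ± 195 and 1566 ± 96.9 CPM (SD, n = 3), and the log2 fold change was -0.30 (SE 0.12, 95% interval -0.56 to -0.035, adjusted p = 0.446 from edgeR). With the block it was -0.29 (SE 0.096), and the adjusted p was 0.0712. Within cultures the log2 ratios were -0.42, -0.19 and -0.28.

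Hsp90aa1 (ENSMUSG00000021270.9, chr12:110690605-110702728, minus strand), the cytosolic Hsp90 that heat can induce, stood at 600, 647 and 563 CPM with vehicle and at 604, 551 and 659 CPM with 10HDA. The cultures differed in direction, with log2 ratios of 0.012, -0.23 and 0.23. The means were 603 ± 41.9 and 605 ± 54.1 CPM (SD, n = 3), and the log2 fold change was 0.0039 (SE 0.11, 95% interval -0.23 to 0.24, adjusted p = 0.992 from edgeR). The counts of Hsp90aa1 were 29.4%, 38.1% and 27.7% of those of Hsp90ab1 with vehicle and 39.6%, 36.9% and 39.3% with 10HDA. Culture 3 differed from the other two in the vehicle libraries, and the mean log2 ratio differed by 0.30 between treatments (exact two-sided permutation test, p = 0.2, adjusted over 4 ratios 0.4). Without culture 1 that difference was 0.23.

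Hspb1 (ENSMUSG00000004951.10, chr5:135887919-135889563, plus strand), the small heat shock protein Hsp25 of the mouse, had 0, 2 and 2 counts with vehicle and 1, 3 and 1 with 10HDA. It was thus seen in 5 of 6 libraries, at 3 counts or fewer, and no fold change is given at such counts. With 10HDA its level was 0.086, 0.22 and 0.11 CPM, against at most 0.17 CPM with vehicle.

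The mitochondrial pair Hspd1 and Hspe1 was slightly above vehicle by mean and did not pass the test. Hspd1 (ENSMUSG00000025980.10, chr1:55077835-55088243, minus strand) stood at 127, 125 and 123 CPM with vehicle and at 136, 123 and 153 CPM with 10HDA. The 10HDA library of culture 4 was highest, and the log2 ratios were 0.095, -0.032 and 0.32. The log2 fold change was 0.13 (SE 0.10, 95% interval -0.093 to 0.36, adjusted p = 0.667 from edgeR). It was 0.047 without the 10HDA library of culture 4, 0.033 without both libraries of that culture and 0.21 without those of culture 3.

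Hspe1 (ENSMUSG00000073676.4, chr1:55088132-55091307, plus strand) shares the promoter region with Hspd1. It stood at 57.2, 41.4 and 48.6 CPM with vehicle and at 52.3, 52.0 and 56.3 CPM with 10HDA. It was lower with 10HDA in culture 1 and higher in cultures 3 and 4. The log2 fold change was 0.13 (SE 0.13, 95% interval -0.15 to 0.40, adjusted p = 0.735 from edgeR), and it was 0.28 without culture 1, 0.27 without its vehicle library alone, and 0.037 without culture 3 or its vehicle library alone. The counts of Hspe1, not divided by length, were from 33.03% to 44.9% of those of Hspd1 with vehicle and from 36.7% to 42.4% with 10HDA. The difference in mean log2 ratio was 0.0088 (exact two-sided permutation test p = 1), and it was 0.13 without culture 1.

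Several of these genes have near-identical copies elsewhere in the genome. The reads were 50 bases long, and the handling of reads with several matches is not given in the sources used here, so that the authors' counting could have split them. Of all stretches of 50 bases in the transcripts, 66.3% for Hspa1a, 62.3% for Hspa1b, 50.1% for Hspb1, 47.5% for Hsp90aa1, 42.1% for Hspd1, 39.4% for Hspa8 and 22.8% for Hspe1 also occurred in other genes. The share was 3.44% for Hsp90ab1, 0.412% for Dnajb1 and 0% for Hsph1. Hspa1a and Hspa1b had 1716 of these stretches in common. Hspe1 shared 17.9% of its stretches with AC117239.2, annotated as protein-coding, and 4.42% with Hspd1, whose span overlaps that of Hspe1. Levels of the genes with high shares, and their order, are therefore uncertain.

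Processed pseudogenes, which are intronless copies of a transcript, also held counts. Hspd1-ps3 held 6505 counts over the 6 libraries, which was 70.5% of those on Hspd1. Its level was 89.5 ± 6.29 CPM with vehicle and 95.5 ± 14.3 CPM with 10HDA (SD, n = 3; log2 fold change 0.093, adjusted p = 0.800 from edgeR). Hspd1-ps4 had 22 counts, and the Hspe1 pseudogenes from 0 (Hspe1-ps4) to 36 (Hspe1-ps2). Copies with other names were picked after their values were seen. Among them, Gm5844 held 24809 counts, or 58.1% of those on Hsp90aa1, and Gm12346 held 8347, or 19.5%. Gm8326 and Gm8337 held 13.1% and 9.91% of the counts on Hspa8, and Gm6368 4.49% of those on Hsp90ab1.

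Pseudogenes that were not among the genes listed, such as Gm6210 with 17.3% of the stretches of Hspa8, could not be added. Adding the counts of all listed pseudogenes that shared at least 1% of the stretches raised the level of Hsp90aa1 most. Its mean became 1096 ± 50.1 CPM with vehicle and 1061 ± 119 CPM with 10HDA (SD, n = 3), and the log2 fold change turned from 0.0039 to -0.048. Per kilobase, the summed Hsp90aa1 level of 279 ± 12.7 CPM with vehicle then overlapped the summed Hspa8 level of 297 ± 15.2 CPM. With 10HDA these levels also overlapped, with Hsp90aa1 at 270 ± 30.3 CPM above Hspa8 at 262 ± 15.6 CPM by mean. For Hspa8 the log2 fold change became -0.18 and for Hspd1 0.12. With the copies added and the culture block, the same 3 genes passed, Hspa1b with an adjusted p of 0.0739, Hsp90ab1 with 0.0826 and Hsph1 with 0.0830.

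**Figure D3:**
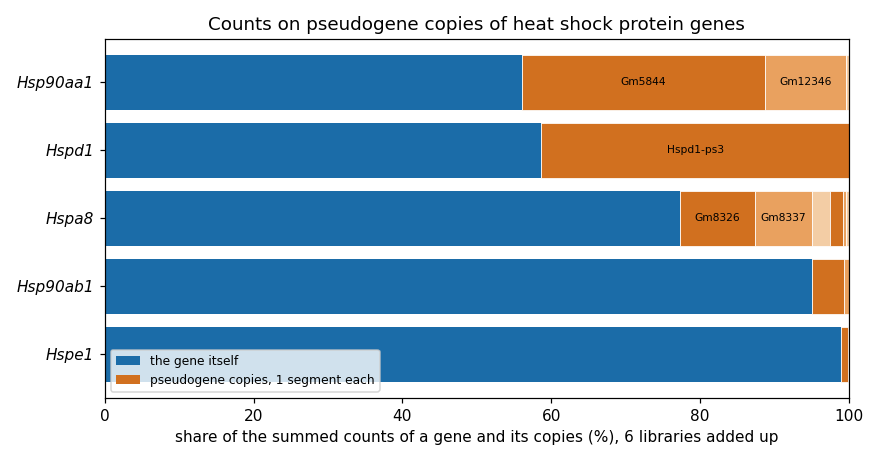
Share of the summed counts, in percent over the 6 libraries, that fell on a heat shock protein gene (blue) and on its pseudogene copies (orange shades, 1 segment each). The gene itself took 56.1% of the sum for Hsp90aa1, 58.7% for Hspd1, 77.3% for Hspa8, 95.1% for Hsp90ab1 and 98.9% for Hspe1.

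The wider chaperone network was described by 9 lists of genes with roles next to those of the heat shock proteins. In none of them did a gene pass edgeR's test without the culture block, against 0.627% of all genes tested, and 5 of the 67 different genes tested (Hspa12a, Dnajc6, Ahsa1, Chordc1 and Vbp1), or 7.46%, had an unadjusted p under 0.05, against 10.1%. With the block 2 genes passed, or 2.99%, against 8.98%: Hspa12a, a distant relative of Hsp70, and Vbp1, a subunit of prefoldin. Hspa12a stood at 130, 167 and 179 CPM with vehicle and at 121, 117 and 141 CPM with 10HDA, and its log2 fold change was -0.33 (SE 0.13, adjusted p = 0.434 from edgeR and 0.0475 with the block). Vbp1 stood at 58.1, 66.8 and 42.7 CPM with vehicle and at 86.6, 77.8 and 63.6 CPM with 10HDA. Its log2 fold change was 0.44 (SE 0.16, adjusted p = 0.409 from edgeR and 0.00897 with the block). The groups of both genes overlapped. Without culture 1, 3 or 4, the adjusted p from edgeR with the block was 0.0267, 0.193 and 0.339 for Hspa12a and 0.0594, 3.56e-05 and 0.186 for Vbp1.

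No heat shock factor passed the test. Hsf1, the factor that induces the response, was at 39.6 ± 4.26 and 39.1 ± 4.82 CPM (SD, n = 3; log2 fold change -0.015), and Hsf2 at 49.3 ± 4.03 and 48.5 ± 3.53 CPM. Hsbp1, a small protein that binds Hsf1, had the smallest p of the list (log2 fold change -0.20, adjusted p = 0.622 from edgeR). All 3 of the 5 listed factors that were tested were below 0, with a median of -0.024. The median changed sign with upper quartile scaling, to 0.0038, and with library size alone, to 0.047. Over 23 alternatives it was from -0.18 to 0.047.

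Among the partners of Hsp70, the 3 other Hsp70 and Hsp110 genes tested had a median log2 fold change of -0.077. That median was -0.0043 with library size alone, 0.011 without culture 3 and from -0.22 to 0.011 over 23 alternatives. Of the 12 J-domain co-chaperones tested, 2 were higher and 10 lower, with a median of -0.079. That median was -0.0045 with library size alone, -0.030 without culture 1 and from -0.099 to -0.0031 over 23 alternatives. Dnajc6 (auxilin), which works with Hspa8 on clathrin coats, had the smallest p, at 141 to 173 CPM with vehicle and 128 to 142 CPM with 10HDA (log2 fold change -0.26, SE 0.11, adjusted p = 0.450 from edgeR). The 8 exchange factors and cofactors tested were split evenly, 4 and 4, with a median of 0.012. That median was -0.049 without culture 3 and 0.086 with library size alone. Stub1, a ubiquitin ligase that binds Hsp70 and Hsp90, had the smallest p of these 8 (log2 fold change -0.22, adjusted p = 0.578 from edgeR). Bag3, a cofactor that heat shock induces, was under the filter at 1.14 to 2.16 CPM in every library.

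Of the 15 Hsp90 co-chaperones, 5 were higher and 10 lower, and the median log2 fold change was -0.021. That median turned positive with upper quartile scaling (0.0069) and library size alone (0.050), and was from -0.080 to 0.059 over 23 alternatives. Ahsa1, which stimulates the ATPase of Hsp90, stood at 129, 103 and 126 CPM with vehicle and at 92.7, 93.3 and 110 CPM with 10HDA, and was lower in each culture (log2 fold change -0.28, SE 0.12, adjusted p = 0.458 from edgeR and 0.101 with the block). Among 10 tested genes of the list of other described Hsf1 targets, which shares Ahsa1 and other genes with these lists, 2 were higher and 8 lower. Their median was -0.076, and it was -0.0040 with library size alone and -0.010 without culture 1. Over 23 alternatives it was from -0.18 to -0.0020. None of the 7 other small heat shock protein genes was high enough to test. They summed to between 5.52 and 8.31 CPM with vehicle and between 6.52 and 9.31 CPM with 10HDA, and Hspb7 was at 0.

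In the mitochondrion, 7 of the 9 chaperone and protease genes tested were higher and 2 lower, with a median log2 fold change of 0.029. That median was 0.10 with library size alone, 0.13 without the vehicle library of culture 1 and from 0.012 to 0.13 over 23 alternatives. Hspa9, the mitochondrial Hsp70, had the smallest p, at 205, 188 and 202 CPM with vehicle and at 239, 204 and 260 CPM with 10HDA. It was higher with 10HDA in each culture, the groups overlapped by 1 library each, and the log2 fold change was 0.24 (SE 0.11, adjusted p = 0.498 from edgeR and 0.150 with the block). The cytosolic chaperonin and prefoldin, which fold actin and tubulin, had 7 of 14 genes higher and 7 lower, with a median of 0.0045, which was -0.075 without culture 4 and 0.085 without culture 1.

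**Figure D4:**
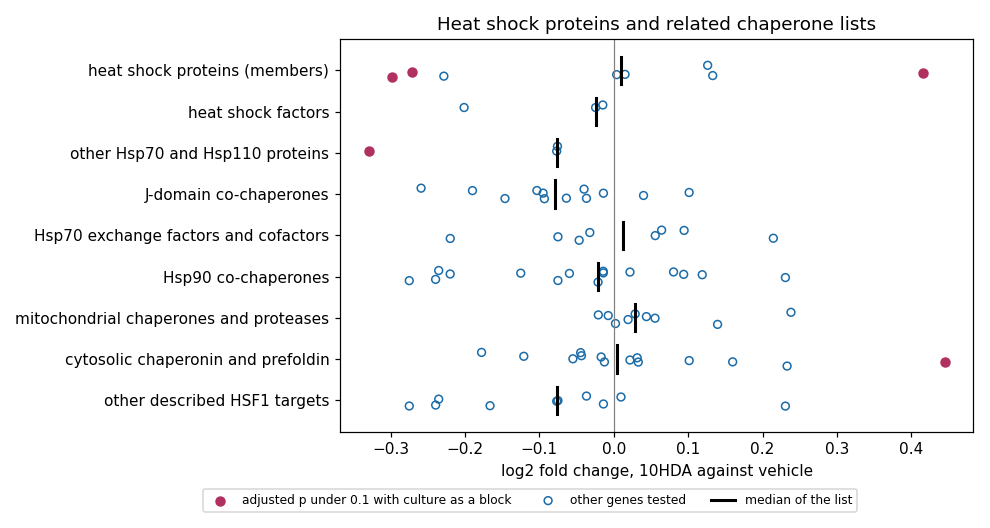
Log2 fold changes, 10HDA against vehicle, of the heat shock protein genes and of the genes of the related lists that were tested, 1 circle per gene, with a black line for the median of each list. The medians lie between -0.079 and 0.029, and the filled circles are the genes with an adjusted p under 0.1 in the fit with culture as a block.

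Markers of several cell types also differed between the treatments. All 8 astrocyte markers tested of 9 were lower with 10HDA, with a median log2 fold change of -0.73, and 4 passed without the block (Gfap -1.28, Aldh1l1 -1.02, Aldoc -0.81 and Clu -0.66). Their summed level was from 1197 to 1469 CPM with vehicle and from 883 to 1107 CPM with 10HDA. At the same threshold, Pdgfrb, listed with endothelial cells and pericytes (log2 fold change -1.07), and Cspg4 of oligodendrocyte precursors (-0.92) also passed. Of these 6 markers, none passed without the 10HDA library of culture 1, without the vehicle library of culture 3, without culture 1 or without culture 3, and 1 passed without the vehicle library of culture 4 or without culture 4. All 6 were lower in each of these fits, and all 6 passed with the block without any 1 culture. The 6 endothelial and pericyte markers summed to between 17.02 and 18.7 CPM with vehicle and between 7.73 and 10.6 CPM with 10HDA. Of these sums Pdgfrb took a mean of 15.4 and 7.22 CPM, and Rgs5 a mean of 0.33 and 0.41 CPM. Of the 5 markers of meningeal fibroblasts, Dcn stood at a mean of 8.98 and 4.39 CPM and Col1a1 at 1.06 and 1.02 CPM, while the other 3 were below 1 CPM. Of the 8 neuronal markers, 7 were lower, with sums from 5808 to 6079 CPM with vehicle and from 4745 to 5324 CPM with 10HDA, and 3 (Rbfox3, Snap25 and Syt1) passed with the block. Other markers also passed with the block. Aqp4 of astrocytes, Pdgfra and Sox10 of the oligodendrocyte lineage, and Slc17a7, Dlx1, Dlx2, Sst and Elavl4 of neurons and their precursors were lower. Vim of radial glia and Insm1 of intermediate progenitors were higher. These lists were mixed in direction. Of the oligodendrocyte lineage markers tested, 2 were higher and 4 lower. For radial glia, 2 were higher and 3 lower. In the list for intermediate progenitors, Insm1 was higher and Elavl4 lower, while Eomes and Neurog2 were too low to be tested. Over all genes tested, 0.627% passed without the block and 8.98% with it. Of the 19 markers that passed with the block, 16 still did without culture 1, 17 without culture 3 and 11 without culture 4, all in the same direction. Their part in the levels of Hspa1b, Hspa8, Hsp90ab1 and Hsph1 was not tested. In these bulk libraries, fewer cells of a type and less RNA per cell cannot be told apart.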

How the data were processed

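RNA of 6 libraries (3 per treatment, cultures 1, 3 and 4) was sequenced as 50-base single-end reads from a strand-specific kit. The paper's methods say that the reads were not trimmed, that Subjunc placed them on mm10, and that featureCounts assigned them to Gencode genes. The submitters' processing notes name Subread 1.4.4, edgeR 3.4.2 and R 3.0.2. The strand setting is not given in the sources used here. The deposited values are raw counts, which the authors had neither normalized nor filtered, and no further sample columns were present. Symbols and coordinates are from GENCODE M21 (GRCm38), which matched 98.0% of the identifiers.

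A gene was tested if 3 or more libraries held 10 CPM of it or more. Counts were scaled by TMM and compared by edgeR 4.0.16 (R 4.3.3, glmQLFit and glmQLFTest, without a culture term) with Benjamini-Hochberg adjustment over all genes tested and a threshold of 0.1. The SE is the log2 fold change over the root of F. CPM were computed on a library's total count times its TMM factor. Ratios within cultures had 0.5 added to each count. Nothing in the labels says whether libraries of a treatment came from separate litters, so that p-values measure the spread between these libraries.

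The labels give each culture 1 library per treatment, so that the numbers pair the libraries. Deviations from the treatment means correlated across genes at 0.37, 0.23 and 0.62 within cultures 1, 3 and 4, against -0.45 to 0.19 between cultures. The alternatives were other scalings (DESeq2 size factors, upper quartile, library size alone), DESeq2 1.42.0 and limma-voom (limma 3.58.1), other filters, a threshold of 0.05, culture as a block and libraries left out. Adding pseudogene copies, leaving out culture 3 or 4 with the block and library-size scaling with the block were chosen after seeing the data. So were the block fit of the summed Hspa1 genes and the leave-outs for those genes, for single genes of the lists, for markers and for ratios.

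The 10 genes and the lists were chosen with earlier results of these data known. The genes named are the 10 genes, the genes of each list that passed with or without the block, otherwise the one with the smallest p, and the pseudogenes that the annotation names after a heat shock protein gene. Shared stretches were found by exact search of all stretches of 50 bases in GENCODE M21 transcripts. Promoter sequences are from RefSeq (GRCm38.p6).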

Additional observations from a re-analysis of the deposited data

How the results depend on the processing

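Of 194 alternative values for the 8 heat shock protein genes tested, 176 kept their direction and their side of the threshold, 10 kept the direction and now passed it, and 8 changed sign. Those that changed sign were of genes near 0. For Dnajb1 the log2 fold change, 0.015, was from -0.020 to 0.063 without 1 library, and -0.0007 without the vehicle library of culture 4. For Hsp90aa1, 0.0039, it was from -0.062 to 0.077 without 1 library, -0.025 without the vehicle library of culture 4, and from -0.11 (culture 4) to 0.12 (culture 3) without 1 culture, with and without the block, -0.048 with pseudogene copies added and -0.053 with the copies and the block. The cause was not tested. The count of heat shock protein genes that passed was 0 without the culture block in every alternative, and with it 3, also 3 with the copies added, 2 without culture 3, 1 with library size alone and 0 without culture 1 or 4. The block changed no other call among the 8. The number that were higher, 5, was 3 without the vehicle library of culture 4. Over all genes, 66 passed, and 170 did with DESeq2's Wald test, 636 with no filter, 43 at a threshold of 0.05 and 945 with the block. With the block, 945 passed with the copies added, 1236 with library size alone, 711 without culture 1, 1150 without culture 3 and 373 without culture 4. Without the block, 0 (10HDA, culture 1) to 350 (10HDA, culture 4) passed without 1 library and 0 to 9 without 1 culture. Depth limits Hspb1, Hspa1a and the other small heat shock proteins.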
